A study of Mus musculus with 28 samples.

Results

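The 10 genes described here are 8 ligands of the epidermal growth factor (EGF) family, the EGF receptor Egfr and that receptor's feedback inhibitor Errfi1. The ligands are Areg, Ereg, Hbegf, Btc, Tgfa, Egf, Nrg1 and Nrg3. The 10 genes were chosen by gene name from the 22919 genes listed in each of the 7 deposited comparison tables, and all were found. The family was picked with the large rise of Areg under bicuculline already known from these data, so the levels and responses of Areg in bicuculline are given as a description with no test. The calls of the other 9 are likewise those of genes picked with results of these data known. The assay was Bru-seq, which sequences only RNA made during a brief bromouridine pulse, pulled down with an antibody to that base, and so reads ongoing transcription. The material was forebrain cultures of CD1 mice holding neurons, astrocytes and oligodendrocyte precursor cells, and each replicate was a pool of cortices and hippocampi from embryos of embryonic day 18. Every culture received a lentivirus on day in vitro 14, with a control hairpin (shCtrl) or with a hairpin that targets Rai1 (shRai1), and was harvested on day 17. For the last 4 hours the cultures were given water as vehicle, 1 µM tetrodotoxin (TTX), a sodium channel blocker that silences firing, or 20 µM bicuculline (BIC), which blocks inhibitory transmission and raises firing. Bromouridine at 2 mM was present for the last 20 minutes. The 16 libraries were 2 shCtrl vehicle, 3 shCtrl TTX, 2 shCtrl BIC, 3 shRai1 vehicle, 3 shRai1 TTX and 3 shRai1 BIC.

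EGF-family ligands are made as membrane-bound precursors, and metalloproteases shed many of them from the cell surface. Areg, Hbegf, Tgfa, Egf, Ereg and Btc bind the receptor tyrosine kinase EGFR, some of them also ERBB4, while the neuregulins Nrg1 and Nrg3 bind ERBB3 or ERBB4. Bound receptors pair and signal through RAS and the MAP kinases, and Errfi1 (also called MIG6) binds the EGFR kinase domain and blocks it, closing a feedback loop. In the brain, neuregulins act on interneurons and synapses, and EGFR is found mainly on progenitors and glia.

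The promoters of Areg and Errfi1 are shown because these genes had the largest rise under BIC and the largest fall under TTX among the 10, and that of Btc because it lies in the same stretch of chromosome 5 as Areg and did not pass in either drug. Each is 300 bases from RefSeq on GRCm38.p6, with 250 bases before the annotated start and 50 after it, read 5′ to 3′ on the gene's strand. Capitals mark the cyclic AMP response element (CRE) TGACGTCA and its core TGACG, on either strand, and a CRE always holds the core. The intervals are chr5:91139349-91139648 for Areg, chr4:150854820-150855119 for Errfi1 and chr5:91402945-91403244 for Btc, the first 2 on the plus strand and Btc on the minus strand.
Areg: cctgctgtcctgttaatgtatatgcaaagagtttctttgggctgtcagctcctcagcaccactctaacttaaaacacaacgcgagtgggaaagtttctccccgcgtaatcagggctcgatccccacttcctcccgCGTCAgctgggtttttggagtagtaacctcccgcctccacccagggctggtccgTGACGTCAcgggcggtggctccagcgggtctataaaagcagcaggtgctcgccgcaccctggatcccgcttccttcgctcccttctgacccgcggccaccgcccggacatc
Errfi1: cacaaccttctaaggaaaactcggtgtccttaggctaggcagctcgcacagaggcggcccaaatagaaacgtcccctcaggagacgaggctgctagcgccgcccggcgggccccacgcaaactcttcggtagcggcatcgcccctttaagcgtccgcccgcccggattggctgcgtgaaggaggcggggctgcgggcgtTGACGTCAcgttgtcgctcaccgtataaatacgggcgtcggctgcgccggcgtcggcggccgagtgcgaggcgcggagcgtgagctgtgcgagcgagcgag
Btc: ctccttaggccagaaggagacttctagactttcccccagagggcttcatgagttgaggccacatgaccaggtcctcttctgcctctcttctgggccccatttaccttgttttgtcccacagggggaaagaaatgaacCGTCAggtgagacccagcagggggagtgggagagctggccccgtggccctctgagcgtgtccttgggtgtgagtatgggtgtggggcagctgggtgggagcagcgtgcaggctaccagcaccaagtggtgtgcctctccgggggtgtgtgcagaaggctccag
The full CRE stood at -61 to -54 from the start of Areg and at -51 to -44 from this start of Errfi1. Areg held a further core at -115 to -111, and Btc held only a core, at -113 to -109. Of 32851 promoters in the same table, 1.79% held the CRE and 20.8% the core. The table had 9 promoters for 7 of the 10 genes. No CRE or core stood in those of Tgfa, Egfr and Nrg3, in either of 2 for Egf or in the other Errfi1 promoter at chr4:150853546-150853845. The same promoters held no AP-1 motif TGANTCA, no EGR motif GCGNGGGCG and no CArG box, which stood in 7.81%, 5.55% and 1.63% of all promoters. A match is a run of letters in this window and not a measured binding site. Ereg, Hbegf and Nrg1 were not matched in the table.

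All values are the authors' summaries, and the error of each log2 change is the standard error (SE) of their DESeq2 model over the libraries. The depth of each library is unknown, since no value per library was used. A p-value was listed for 21192 genes, and a gene is said to have risen or fallen where the adjusted p was under 0.05. The changes of low genes are pulled toward 0 in these tables, and no gene with a mean normalized count under 1 had an absolute log2 change above 0.73. Nascent Rai1 did not differ past the threshold in the libraries labelled shRai1, where the authors' deposited tables gave changes of 0.16 (SE 0.073) in vehicle, -0.12 (SE 0.064) in TTX and 0.03 (SE 0.073) in BIC. Directions between the arms therefore rest on the labels. Of the labelled cell types, the summed FPKM in shCtrl vehicle was 442 for 7 neuron markers, 195 for 6 astrocyte markers and 129 for 5 oligodendrocyte precursor markers, beside 19.6 for 5 microglia markers, and none of these markers was at 0. In such mixed cultures, fewer cells of a type and less nascent RNA per cell cannot be told apart.

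In control cultures the genes differed widely in level. Per the authors' pooled FPKM, a level per length with 1 value per condition, Errfi1 was the highest in vehicle at 47.6 (bounds 36.7 to 58.6). Hbegf at 13.2 and Tgfa at 13.03 led the ligands, followed by Nrg3 at 9.28, the receptor Egfr at 7.60 and Nrg1 at 4.07. Ereg at 2.09, Btc at 1.47 and Egf at 0.291 were low, and Areg was listed at 0. Apart from Errfi1, whose bounds lay above those of Hbegf, the bounds of each gene overlapped those of the next in this order. How the authors set the bounds is not given in the sources used here.

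**Figure D1:**
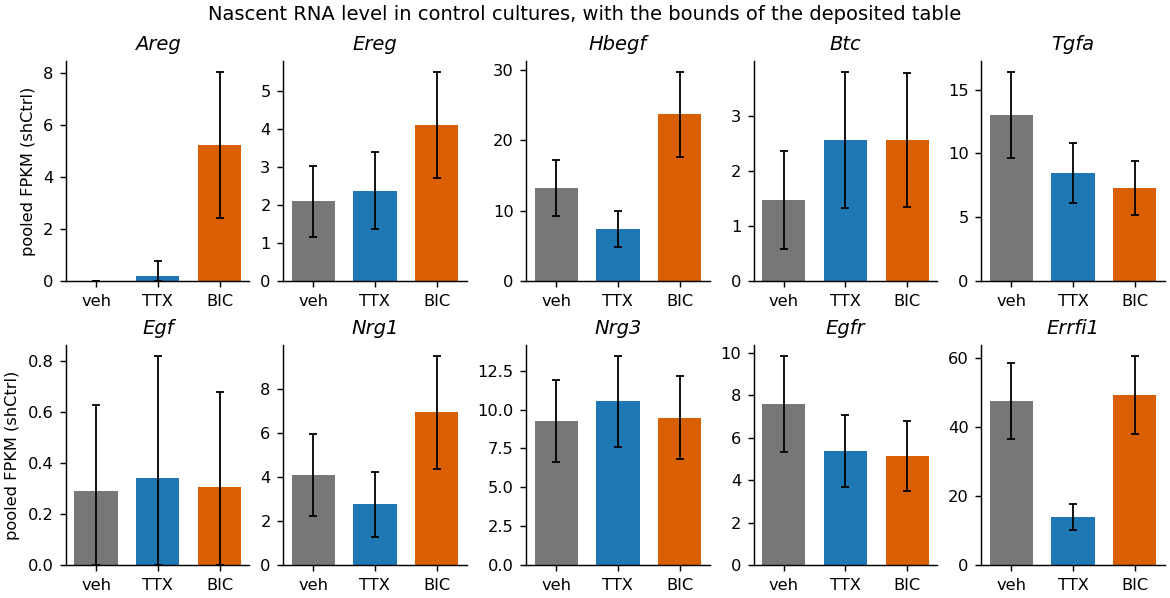
Pooled FPKM of the 10 genes in shCtrl cultures given vehicle (veh), TTX or BIC, with 1 bar per condition starting at 0 and the bounds of the authors' table as error bars; each panel has its own vertical scale. Areg is listed at 0 in vehicle and at 5.23 in BIC, and Errfi1 falls from 47.6 in vehicle to 14.0 in TTX.

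Silencing lowered part of the family and raised none of it past the threshold. Under TTX in shCtrl 5 of the 10 genes fell, Hbegf, Tgfa, Nrg1, Egfr and Errfi1, and 0 rose, where 14.9% of all genes with an adjusted p fell and 11.8% rose. In shRai1 4 fell, the same without Nrg1, and 0 rose, beside 16.8% and 13.7% of all genes. No rise had an unadjusted p under 0.05 by DESeq2 in either arm. The median change of the 10 was -0.52 in shCtrl and -0.31 in shRai1, against a median over all genes of 0.00 in each. In shCtrl 5 of the genes, and in shRai1 6, had no passing change, and Areg, Ereg, Btc, Egf and Nrg3 were among them in each arm.

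Raised firing moved the genes in opposite directions. Leaving aside Areg, on which the family was picked, under BIC in shCtrl Ereg, Hbegf and Nrg1 rose while Tgfa, Egf and Egfr fell, that is 3 and 3 of 9, beside 17.4% of all genes higher and 17% lower. In shRai1 Hbegf, Nrg1 and Errfi1 rose while Tgfa, Egf, Nrg3 and Egfr fell, 3 and 4 of 9, where 21.3% of all genes were higher and 21.3% lower. The median change of all 10, Areg included, was -0.03 in shCtrl and 0.16 in shRai1, against -0.02 and 0.00 over all genes. Since the family was picked with a BIC result in view, nothing is read from these counts. In each arm the TTX and BIC comparisons share their vehicle libraries, so a gene's TTX and BIC changes are not independent of each other.

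**Figure D2:**
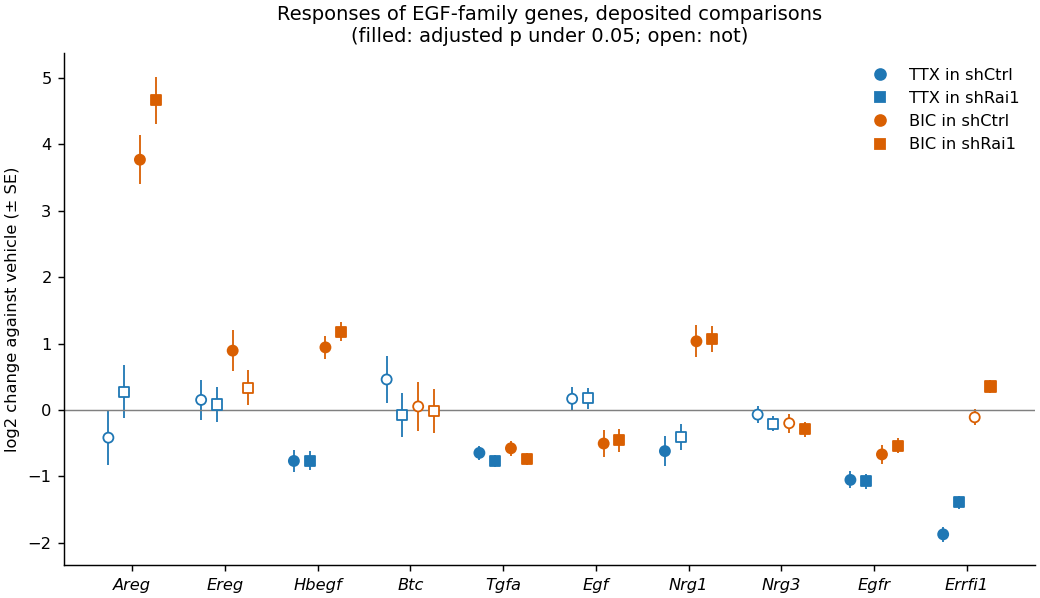
Deposited log2 change against vehicle for each gene under TTX (blue) and BIC (orange), in shCtrl (circles) and shRai1 (squares), with SE bars; filled symbols have an adjusted p under 0.05. Areg stands at 3.77 and 4.66 under BIC, Errfi1 at -1.87 and -1.39 under TTX, and Tgfa and Egfr lie below 0 in all 4 comparisons. For Areg under BIC, on which the family was picked, the fill is a description and not a test.

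Amphiregulin (Areg) is a shed ligand of EGFR and lies on chromosome 5 from 91568641 to 91577458 (mm9). The mean level of each group, as a normalized count computed from the deposited mean and log2 changes, was 7.29 in shCtrl vehicle, 5.46 in shCtrl TTX and 99.3 in shCtrl BIC, and 4.39, 5.32 and 111 in the corresponding shRai1 groups. The 2 BIC groups thus stood far above the other 4, which all lay between 4.39 and 7.29. In the authors' deposited tables the BIC change was 3.77 (SE 0.37) in shCtrl and 4.66 (SE 0.36) in shRai1, or 13.6-fold higher (95% interval 8.27 to 22.4) and 25.4-fold higher (15.6 to 41.1). The first ranked 9th and the second 3rd from the top of 21192 genes. Pooled FPKM went from a listed 0 in vehicle to 0.204 (bounds 0 to 0.782) in TTX and 5.23 (2.40 to 8.05) in BIC. The TTX changes of Areg in the authors' deposited tables were -0.42 (SE 0.41, DESeq2 adjusted p 0.511) in shCtrl and 0.28 (SE 0.41, adjusted p 0.673) in shRai1.

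Heparin-binding EGF-like growth factor (Hbegf), another shed ligand of EGFR and ERBB4, followed firing in both directions. Its group means were 349 normalized counts in shCtrl vehicle, 205 in TTX and 670 in BIC, and 338, 199 and 766 in shRai1. Within each arm the order was TTX, vehicle, BIC. Against vehicle, the authors' deposited tables gave -0.77 (SE 0.16, DESeq2 adjusted p 2.71e-05) under TTX and 0.94 (SE 0.17, adjusted p 3.92e-07) under BIC in shCtrl. For shRai1, the authors' deposited tables gave -0.76 (SE 0.15, adjusted p 1.95e-06, DESeq2) and 1.18 (SE 0.14, adjusted p 2.00e-16). Hbegf was the only one of the 10 to fall under TTX and rise under BIC in both arms, a pattern of 4.96% of 15464 genes. Pooled FPKM in shCtrl was 7.39 in TTX (bounds 4.81 to 9.97), 13.2 in vehicle (9.30 to 17.2) and 23.7 in BIC (17.7 to 29.8), and the bounds of BIC and vehicle did not overlap. The gene lies on chromosome 18 from 36664581 to 36675459 (mm9).

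Neuregulin 1 (Nrg1), a ligand of ERBB3 and ERBB4, had the same order of levels as Hbegf. Its group means were 896 normalized counts in shCtrl vehicle, 583 in TTX and 1835 in BIC, and 771, 582 and 1620 in shRai1. BIC raised it, per the authors' deposited tables, by 1.03 (SE 0.24, DESeq2 adjusted p 9.14e-05) in shCtrl and by 1.07 (SE 0.20, adjusted p 3.73e-07) in shRai1. Under TTX it fell by 0.62 (SE 0.22, DESeq2 adjusted p 0.0219) in shCtrl in the authors' deposited table, and the change of -0.41 (SE 0.20, adjusted p 0.113) in shRai1 did not pass. The difference between those TTX changes was 0.21 (95% interval -0.37 to 0.80), so the arms are not shown to differ. Averaged over arms, the TTX change was -0.51 (SE 0.15, Wald test with Benjamini-Hochberg adjusted p 0.00256). The interval listed for Nrg1 lies on chromosome 8 from 32928500 to 33028675 (mm9).

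Epiregulin (Ereg), a ligand of EGFR and ERBB4 that lies beside Areg on chromosome 5 from 91503643 to 91522675 (mm9), had a far smaller BIC change than its neighbour. Group means were 28.8, 32.0 and 53.5 normalized counts in shCtrl vehicle, TTX and BIC, and 34.7, 36.8 and 43.8 in shRai1. The BIC groups were the highest of each arm, by a wider margin in shCtrl. It rose under BIC by 0.89 (SE 0.31, DESeq2 adjusted p 0.0141) in shCtrl in the authors' deposited table, and the 0.33 (SE 0.27, adjusted p 0.339) of shRai1 did not pass. The difference between the arms was -0.56 (95% interval -1.36 to 0.24, Wald p 0.172, adjusted p 1.00). Averaged over arms, the BIC change was 0.61 (SE 0.20, Wald test with Benjamini-Hochberg adjusted p 0.00710).

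Transforming growth factor alpha (Tgfa), a classical EGFR ligand, fell under both drugs. Its group means were 2144 normalized counts in shCtrl vehicle, 1370 in TTX and 1437 in BIC, and 2236, 1308 and 1339 in shRai1, so that vehicle was the highest group of each arm. The authors' deposited tables gave -0.65 (SE 0.10, DESeq2 adjusted p 1.01e-08) under TTX and -0.58 (SE 0.12, adjusted p 5.24e-06) under BIC in shCtrl. In shRai1 the authors' deposited tables gave -0.77 (SE 0.092, DESeq2 adjusted p 1.33e-15) and -0.74 (SE 0.092, adjusted p 1.09e-14). Pooled FPKM in shCtrl was 13.03 (bounds 9.65 to 16.4) with vehicle, 8.45 (6.08 to 10.8) with TTX and 7.26 (5.15 to 9.37) with BIC. Only the BIC bounds lay clear of vehicle. Tgfa lies on chromosome 6 from 86145245 to 86225443 (mm9).

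The remaining ligands were low, nearly flat or both. Egf, the founding ligand of the family, on chromosome 3 from 129380493 to 129466800 (mm9), had 119, 134 and 83.8 normalized counts in shCtrl vehicle, TTX and BIC and 113, 128 and 82.7 in shRai1. Its BIC change in the authors' deposited tables was -0.51 (SE 0.21, DESeq2 adjusted p 0.0475) in shCtrl and -0.45 (SE 0.17, adjusted p 0.0235) in shRai1. That fall is uncertain, because the call in shCtrl was lost when p-values were adjusted over every gene with a p-value (adjusted p 0.0600, Benjamini-Hochberg), pooled FPKM was 0.291 in vehicle and 0.306 in BIC, and the listed interval of Egf overlaps another gene, 6330410L21Rik, whose reads may be shared if strand was not used in counting. Nrg3, a neuregulin that binds ERBB4, on chromosome 14 from 39182137 to 40286376 (mm9), had the highest mean count of the 10, between 10136 and 12397 over the 6 groups. Its BIC change in the authors' deposited tables was -0.20 (SE 0.14, DESeq2 adjusted p 0.310) in shCtrl and -0.29 (SE 0.12, adjusted p 0.0299) in shRai1. That call too was lost on centring (-0.26, Wald adjusted p 0.0711). Nrg3 overlaps Nrg3os, so its values carry the same limit as those of Egf. Betacellulin (Btc), a ligand of EGFR and ERBB4, on chromosome 5 from 91786287 to 91832020 (mm9), stayed between 15.8 and 23.5 normalized counts in the 6 groups. Pooled FPKM of Btc in shCtrl was 1.47 with vehicle, 2.57 with TTX and 2.55 with BIC, with overlapping bounds. None of the 4 responses of Btc passed in the authors' deposited tables, the largest being 0.46 (SE 0.35, DESeq2 adjusted p 0.369) under TTX in shCtrl. At these low counts a change of Btc of that size was not detectable.

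The receptor gene Egfr, on chromosome 11 from 16652206 to 16813910 (mm9), also fell under both drugs. Its group means were 2313 normalized counts in shCtrl vehicle, 1115 in TTX and 1455 in BIC, and 2218, 1054 and 1530 in shRai1. Within each arm the order was TTX, BIC, vehicle. The authors' deposited tables gave a TTX change of -1.05 (SE 0.13, DESeq2 adjusted p 7.27e-15) in shCtrl and -1.07 (SE 0.11, adjusted p 1.48e-19) in shRai1, a fall of 2.07-fold and 2.1-fold. Under BIC it was -0.67 (SE 0.14, DESeq2 adjusted p 1.71e-05) in shCtrl and -0.54 (SE 0.11, adjusted p 1.01e-05) in shRai1, per the authors' deposited tables. Egfr and Tgfa were the members that fell in all 4 responses, as did 1.19% of 15464 genes. Pooled FPKM of Egfr in shCtrl was 7.60 (bounds 5.33 to 9.87) in vehicle, 5.36 (3.66 to 7.06) in TTX and 5.14 (3.50 to 6.78) in BIC, with overlapping bounds. The order of the drugs was thus the reverse of that in the comparison tables, and TTX was not tested against BIC. The size of the TTX fall is uncertain, since these FPKM gave a log2 change of only -0.50.

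Glial and neuronal markers were read beside these genes. Summed FPKM of the 6 astrocyte markers in shCtrl was 195 in vehicle, 159 in TTX and 148 in BIC, and that of the 5 oligodendrocyte precursor markers was 129, 92.0 and 108. Under TTX in shCtrl 3 of 6 astrocyte markers and 4 of 5 precursor markers fell in the authors' deposited table, and none of either list rose, where 14.9% of all genes fell. In shRai1 4 of 5 precursor markers rose under TTX and none fell. Of the astrocyte markers 1 rose and 1 fell there, beside 13.7% of all genes higher and 16.8% lower. Under BIC 1 of each list fell in shCtrl, where 17% of all genes fell, and in shRai1 1 astrocyte marker rose and no other passed. Of the 7 neuron markers, 4 rose and 2 fell under BIC in each arm, with median changes of 0.66 and 0.70, where 17.4% of all genes rose in shCtrl and 21.3% in shRai1. Under TTX 1 rose and 3 fell in shCtrl, and 0 rose and 3 fell in shRai1, per the authors' deposited tables, beside 14.9% and 16.8% of all genes lower. Their summed FPKM in shCtrl was 442 with vehicle, 393 with TTX and 511 with BIC. Of the 5 microglia markers, Cx3cr1 and Csf1r rose under BIC in shCtrl, by 0.92 (SE 0.23) and 1.11 (SE 0.39), and Cx3cr1 rose in shRai1, by 0.60 (SE 0.20), per the authors' deposited tables. Averaged over arms, Aif1, P2ry12 and C1qa did not pass under BIC, with changes of -0.17, 0.38 and 0.14 at mean counts of 3.45, 2.81 and 0.802. None of the 5 microglia markers passed under TTX. Their summed FPKM in shCtrl was 19.6 with vehicle, 20.2 with TTX and 28.5 with BIC, and the highest single marker held 14.7 of the vehicle sum. The part of astrocytes or precursor cells in the changes of Egfr, Tgfa and Errfi1 was not tested. Nor was that of neurons or microglia in the changes of Hbegf and Nrg1.

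Errfi1, the feedback inhibitor of EGFR, lies on chromosome 4 from 150229200 to 150242989 (mm9) and had the largest TTX response of the 10. Its group means were 2085 normalized counts in shCtrl vehicle, 569 in TTX and 1931 in BIC, and 1562, 597 and 1994 in shRai1. The 2 TTX groups stood far below the other 4. In the authors' deposited tables the TTX change was -1.87 (SE 0.11, DESeq2 adjusted p 1.20e-61) in shCtrl and -1.39 (SE 0.098, adjusted p 3.49e-43) in shRai1, a 3.66-fold fall (95% interval 3.15 to 4.26) and a 2.62-fold fall (2.29 to 2.99). From the bottom of 21192 genes these changes ranked 63rd and 117th. Pooled FPKM in shCtrl was 47.6 (bounds 36.7 to 58.6) with vehicle, 14.0 (10.2 to 17.8) with TTX and 49.5 (38.1 to 60.8) with BIC, and Errfi1 was the only one of the 10 whose TTX and vehicle bounds did not overlap. Under BIC the authors' deposited tables gave -0.11 (SE 0.12, DESeq2 adjusted p 0.526) in shCtrl and 0.35 (SE 0.094, adjusted p 0.000692) in shRai1. Thus Errfi1 fell with silencing in both arms. Under BIC it rose in shRai1, while its change in shCtrl was slightly negative and did not pass. The difference between arms did not itself pass (Wald adjusted p 1.00).

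**Figure D3:**
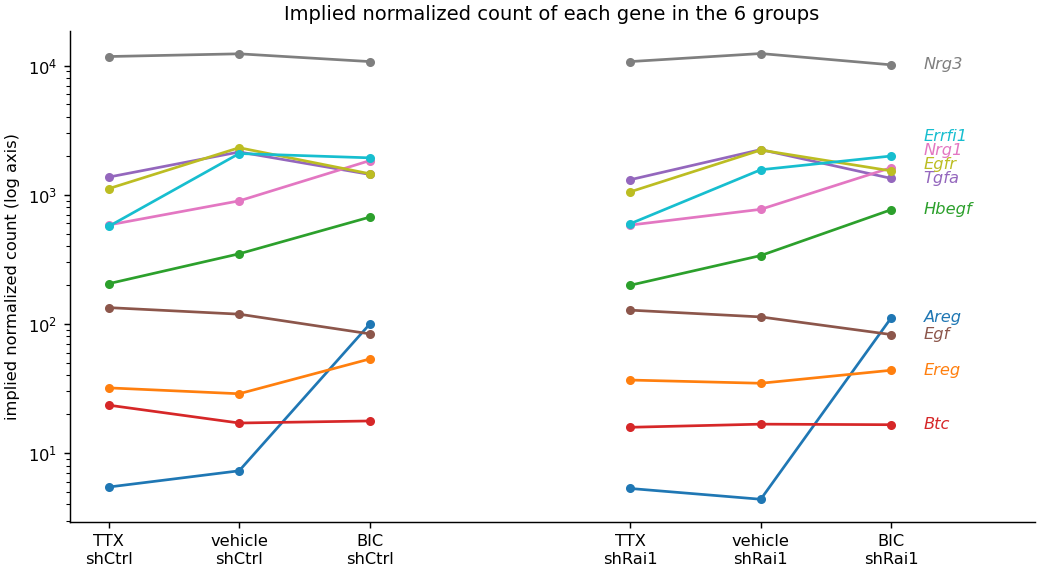
Mean normalized count of each gene in the 6 groups on a log axis, computed from the deposited mean and log2 changes, with no error drawn; lines join the treatments of 1 arm. Areg climbs from 7.29 to 99.3 between vehicle and BIC in shCtrl and from 4.39 to 111 in shRai1, while the lowest groups of Errfi1 are TTX, at 569 and 597.

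Averaged over both arms, which share no library, 5 of the 10 genes fell under TTX and 0 rose, none with an unadjusted p under 0.05 for a rise, beside 33.2% of 18192 genes called in either direction (Wald test with Benjamini-Hochberg adjustment). Errfi1 led with -1.63 (SE 0.074), followed by Egfr with -1.06 (SE 0.085), Hbegf with -0.77 (SE 0.11), Tgfa with -0.71 (SE 0.069) and Nrg1 with -0.51. Under BIC 3 rose and 4 fell of the 9 other than Areg, beside 46.1% of all genes called. Areg stood at 4.22 (SE 0.26, rank 6 of 18192). The rises were those of Hbegf at 1.06 (SE 0.11), Nrg1 at 1.05 (SE 0.16) and Ereg at 0.61. The falls were those of Tgfa at -0.66 (SE 0.074), Egfr at -0.60 (SE 0.091), Egf at -0.48 (SE 0.14) and Nrg3 at -0.24 (SE 0.093). The call of Nrg3 was lost when changes were centred on the median gene (-0.21, adjusted p 0.0551). In these averages Btc passed under neither drug, and Errfi1 passed under TTX but not under BIC, where its change was 0.12 (95% interval -0.03 to 0.27).

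The knockdown arms were then compared within each treatment. In vehicle, Errfi1 was the single member called of 9 with an adjusted p, beside 0.857% of 14237 genes. It fell by 0.42 on the log2 scale in the authors' deposited table (SE 0.11, 95% interval -0.63 to -0.21, DESeq2 adjusted p 0.0229), from 2085 to 1562 normalized counts. Its changes in the authors' deposited tables were 0.07 (SE 0.10) in TTX and 0.05 (SE 0.11) in BIC. None of the 10 passed in TTX, and none of the 9 other than Areg in BIC, by DESeq2, and 0 of these had an unadjusted p under 0.05 in either, where 0.0283% and 0.00944% of all 21192 genes were called. Larger in size, but at low counts and with wide errors, were the differences of Areg in vehicle, -0.73 (SE 0.41, DESeq2 adjusted p 0.513), and of Btc in TTX, -0.57 (SE 0.33, adjusted p 1.00), and neither passed in the authors' deposited tables.

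**Figure D4:**
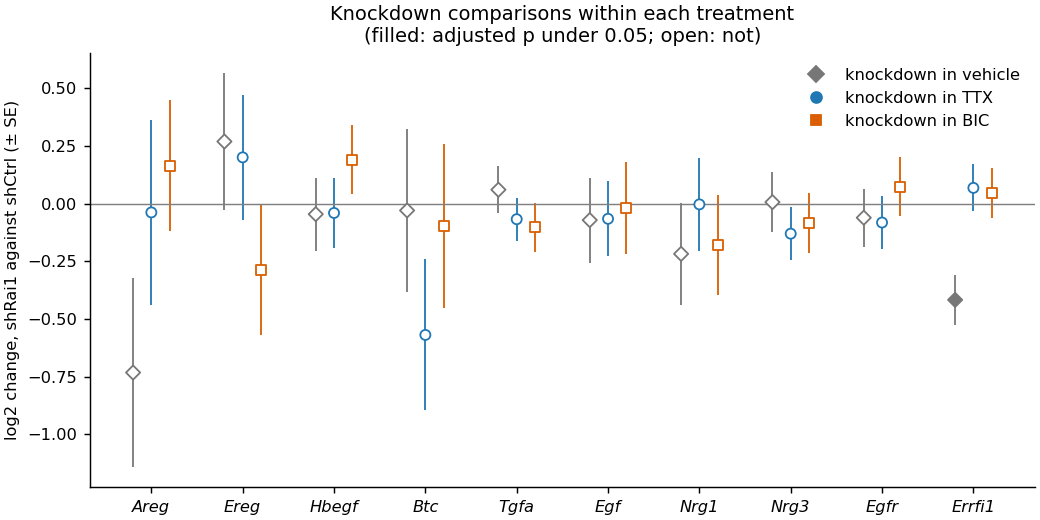
Deposited log2 change of shRai1 against shCtrl in vehicle (diamonds), TTX (circles) and BIC (squares), with SE bars; the filled symbol has an adjusted p under 0.05. Errfi1 in vehicle, at -0.42, is the one filled symbol.

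The difference in response between the arms was tested for every gene. No member passed for TTX, and none of the 9 other than Areg for BIC (Wald test with Benjamini-Hochberg adjustment), with 1 unadjusted p under 0.05 in each, that of Errfi1, and 0.945% and 0.022% of 18192 genes called. Errfi1 fell less under TTX in shRai1 by 0.49 (SE 0.15, 95% interval 0.20 to 0.78, Wald p 0.00101, adjusted p 0.0819). Its BIC response was higher in shRai1 by 0.46 (SE 0.15, Wald p 0.00232, adjusted p 1.00). Both differences contain the same knockdown difference in vehicle, so they are 1 observation seen from both drugs. All 5 oligodendrocyte precursor markers passed the same test for TTX, with the sign of the Errfi1 difference. Their differences ran from 0.76 for Olig1 (Wald adjusted p 0.00483) to 1.86 for Pdgfra (Wald adjusted p 2.61e-22). None of the 5 passed for BIC, where their differences ran from 0.11 for Olig2 to 0.63 for Olig1 (Wald adjusted p 0.645). The neuron marker Rbfox3 also passed for TTX, with the opposite sign (-0.40, Wald adjusted p 0.00483). The part of precursor cells in the difference of Errfi1 was not tested. For Areg the BIC response was higher in shRai1 by 0.90 (SE 0.51, 95% interval -0.11 to 1.90), a difference that is given as a description. For Hbegf the TTX responses differed by 0.01 (95% interval -0.42 to 0.43) and the BIC responses by 0.24 (-0.20 to 0.67), and for Egfr by -0.02 (-0.36 to 0.31) and 0.13 (-0.22 to 0.49).

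Ereg, Areg and Btc lie within one stretch of chromosome 5, with 46.0 kb between Ereg and Areg and 209 kb between Areg and Btc. Within 250 kb of these genes the FPKM table lists 6 others, Cxcl1, Cxcl2, Mthfd2l, Epgn, Gm19619 and Parm1. Cxcl2 and Epgn, with mean normalized counts of 1.98 and 1.83, had no adjusted p under BIC in the authors' deposited tables and could not be called. Of the other genes of the stretch, apart from Areg, Ereg rose with BIC in the shCtrl arm, per the authors' deposited table, and Parm1 fell in both arms by 0.73 (DESeq2 adjusted p 4.84e-06) and by 0.74 (adjusted p 1.31e-09). Epgn, a further ligand of EGFR that lies between Mthfd2l and Ereg, was very low, with pooled FPKM of 0 in vehicle, 0.135 in TTX and 0.113 in BIC.

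**Figure D5:**
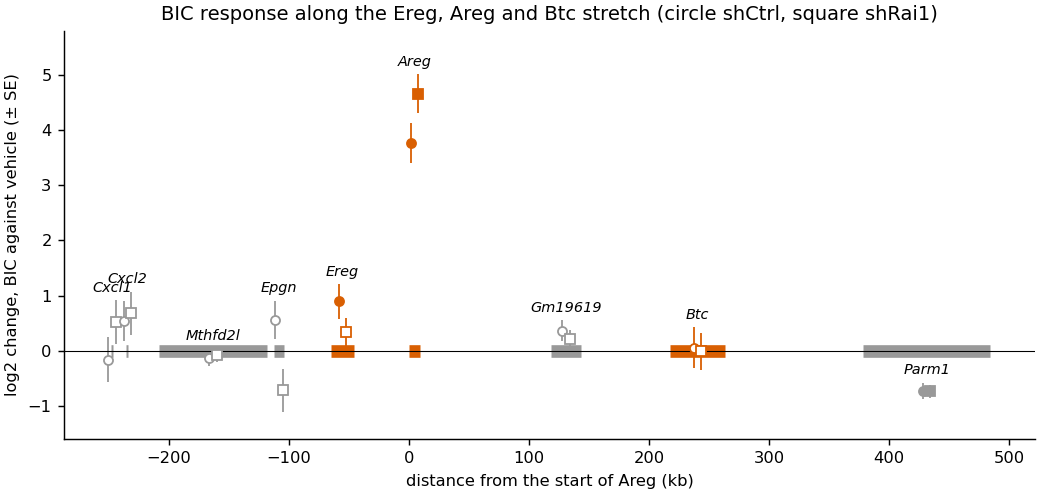
Deposited log2 change under BIC of the genes around Areg against distance from the start of Areg in kb, with SE bars; bars on the zero line are the listed gene intervals (members in orange), circles are shCtrl, squares shRai1, and filled symbols have an adjusted p under 0.05. Areg stands at 3.77 and 4.66, while Btc lies near 0 and Parm1 below it. For Areg, on which the family was picked, the fill is a description and not a test.

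Over the 4 drug responses, the genes most like Areg among 16021 with a mean of at least 0.5 FPKM were Emp1, Ifi202b and Map3k5, at distances of 0.762, 0.837 and 1.12 in log2 units. In the authors' deposited tables their BIC changes were 4.34 and 4.48 for Emp1, 4.24 and 4.09 for Ifi202b, and 3.94 and 4.01 for Map3k5, in shCtrl and shRai1. Under TTX they were 0.04 and 0.38 for Emp1, -0.36 and -0.10 for Ifi202b, and -0.37 (SE 0.10) and -0.61 (SE 0.089) for Map3k5. Areg itself stood at -0.42 and 0.28, with wide errors (SE 0.41 in each arm). Large BIC changes are built into this choice, since the distance was taken from those of Areg. The likeness is over 4 comparisons that share vehicle libraries within each arm and is a description.

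Other genes of ErbB signalling were read from a list of 38. Under TTX in shCtrl 4 rose and 9 fell in the authors' deposited table, 36.1% of the 36 with an adjusted p against 26.7% of all genes. Under BIC in shCtrl 12 rose and 6 fell, 48.6% of 37 against 34.4%. For shRai1 the authors' deposited tables listed 6 higher and 8 lower under TTX, 38.9% against 30.5%, and 14 higher and 7 lower under BIC, 56.8% against 42.5%. The medians of the list were -0.09, -0.01, -0.01 and 0.08 in the same order, beside 0.00, -0.02, 0.00 and 0.00 for all genes. No gene of the list was called in a knockdown comparison by DESeq2, where 6 had an unadjusted p under 0.05 in vehicle, 2 in TTX and 0 in BIC. None was called in the difference between arms (Wald test with Benjamini-Hochberg adjustment), where 8 had an unadjusted p under 0.05 for TTX and 2 for BIC.

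Among the ligands outside the members, Nrg2, a neuregulin that binds ERBB3 and ERBB4, had changes of opposite sign to those of Nrg1 and Hbegf. Its interval overlaps 4930471G03Rik, so it carries the same limit as Egf. It rose under TTX, per the authors' deposited tables, by 0.58 (SE 0.083, DESeq2 adjusted p 7.24e-11) in shCtrl and 0.41 (SE 0.072, adjusted p 2.06e-07) in shRai1. Under BIC it fell by 1.47 (SE 0.096) and 1.52 (SE 0.076) in the authors' deposited tables. The size of that fall is uncertain, since pooled FPKM in shCtrl gave a log2 change of only -0.70. These levels were 4.54 with vehicle, 8.65 with TTX and 2.76 with BIC, and the bounds of each drug overlapped those of vehicle. Erbb4, the receptor of the neuregulins, changed by -0.36 and -0.28 under TTX and by 0.46 and 0.57 under BIC in the authors' deposited tables, all past the threshold. Its BIC rise is uncertain, since pooled FPKM in shCtrl was 10.7 with vehicle, 8.62 with TTX and 10.1 with BIC. Erbb2, the partner receptor without a ligand of its own, and Erbb3 passed in none of the responses for which they had an adjusted p, which Erbb3 lacked under TTX.

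Under BIC 16 genes of the list passed in both arms of the authors' deposited tables, 12 higher and 4 lower, each with the same direction in both. They are 43.2% of the 37 with an adjusted p, against 31.1% of 16692 genes. After Nrg2, the largest changes in shCtrl and shRai1 were those of Lrig2 (0.87 and 1.08), a membrane protein of the LRIG family, and of the adaptors Gab2 (0.91 and 0.99) and Grb2 (0.90 and 0.75), which link active receptors to downstream signalling. By pooled FPKM in shCtrl the log2 change was 0.74 for Lrig2, with bounds clear of vehicle. It was only 0.32 for Gab2 and 0.55 for Grb2, with bounds overlapping vehicle, so the sizes of these 2 rises are uncertain. Shc3, an adaptor found in neurons, fell under TTX by 1.23 (SE 0.091) and 1.56 (SE 0.080) and rose under BIC by 0.74 and 0.61 in the authors' deposited tables. Pooled FPKM of Shc3 in shCtrl gave only -0.55 under TTX and 0.29 under BIC, with bounds overlapping vehicle, so these sizes are uncertain. The values of Shc3 were seen before it was named. Of the 6 sheddases and their cofactors, Adam9 rose under BIC by 0.73 and 0.83 and Adam10 fell by 0.28 and 0.20 in the authors' deposited tables. The size of the Adam9 rise is uncertain, since pooled FPKM in shCtrl gave only 0.24, with bounds overlapping vehicle. Rhbdf1, a cofactor of shedding, changed by -0.30 (adjusted p 0.130) in shCtrl and fell by 0.52 (DESeq2 adjusted p 0.000200) in shRai1, per the authors' deposited tables. Adam17, the main sheddase of Areg, Hbegf and Tgfa, whose interval overlaps Iah1, did not pass under BIC in the authors' deposited tables. Under TTX it fell by 0.54 (SE 0.11, DESeq2 adjusted p 2.63e-05) in shCtrl and changed by -0.08 (adjusted p 0.613) in shRai1, per the authors' deposited tables, and the difference between arms did not pass.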

How the data were processed

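Bru-seq was analysed for 16 libraries in 6 groups, and 12 samples of RAI1 ChIP-seq are not analysed here. Reads were processed with TopHat2 2.1.0, Bowtie2 2.2.6 and DESeq2 on mm9, per the submitters' processing notes. The authors deposited 7 comparison tables holding, per the file headers, a mean normalized count (a signal averaged over libraries), a log2 change with its SE, a Wald score, and p-values before and after adjustment. The authors' table of FPKM gives each condition 1 pooled level and its bounds, per the file headers, and its 6 bound columns for the knockdown were not used. The knockdown FPKM did not follow the comparison tables: across 12283 genes, which are not independent replicates, their log2 changes by column name had r = -0.63 with the deposited TTX change in shRai1 and 0.26 with that of BIC, against 0.73 and 0.76 in shCtrl. Only shCtrl FPKM are therefore printed. The deposited starts were read as 0-based and are given 1-based.

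The vehicle knockdown table has no gene column, so its genes were named by their mean count where it was unique (20107 named, 1085 not, with means of at most 0.306), and log2 changes closed to within 1e-09. Group means were computed from the mean count and the log2 changes, weighted by libraries, and because those changes are pulled toward 0, differences of low genes are understated. Differences between arms and averages over arms used the deposited changes, with SE from contrasts that share no library, a two-sided Wald test and Benjamini-Hochberg adjustment over the 18192 genes whose mean FPKM reached 0.1. Scripts were tested on simulated data and used Python 3.11.15 with pandas 2.3.3, numpy 2.4.6 and scipy 1.17.1.

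The members and gene lists were chosen with earlier results of these data known. Named genes were all 10 members, the 4 pathway genes with the largest BIC change called in both arms, the 3 genes nearest to Areg and the genes within 250 kb of Areg, Ereg or Btc. Erbb2, Erbb3, Erbb4, Shc3, Adam9, Adam10, Adam17, Rhbdf1, Olig1, Olig2, Pdgfra, Rbfox3 and the microglia markers were named outside this rule, after their values were seen. A comparison of ligand protein motifs was planned and not run. Alternatives were thresholds of 0.01 and 0.1, other filters on low values, centred log2 changes, other pseudocounts beside 0.1 FPKM and equal group weights, the last chosen after seeing the data.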

Additional observations from a re-analysis of the deposited data

How the results depend on the processing

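Of the results on counts of called genes, 2 moved by more than 1.5 times. At a threshold of 0.01 the count of members called for the knockdown in vehicle was 0, since the adjusted p of Errfi1 was 0.0229. At a threshold of 0.1 the count for the difference in TTX response was 1, that of Errfi1. Centring on the median of genes whose mean count was 50 or more kept the sign and call of 105 of 110 member changes. The exceptions were the BIC falls of Egf in shCtrl (-0.46, adjusted p 0.0957), of Nrg3 in shRai1 (-0.26, adjusted p 0.0711) and of Nrg3 averaged over arms (-0.21, adjusted p 0.0551), which no longer passed by the Wald test with Benjamini-Hochberg adjustment, and the near-zero changes of Btc under BIC in shRai1 (0.018) and of Nrg1 for the knockdown in TTX (0.0073), which changed sign. For single comparisons that setting also adjusts over every gene with a p-value. This adjustment alone took the Egf call in shCtrl (adjusted p 0.0600) and kept that of Nrg3 in shRai1 (0.0362). Egf, with a mean below 0.5 FPKM, has no value under that filter. The counts under the other filters and the 38-gene list stayed within 1.5 times, and equal group weights moved the group means by factors of 0.953 to 1.01. No paired analysis was possible because the tables hold no value per library, and leaving out each replicate was not run for the same reason. Replicate numbers recur across arms, and the averages and differences over arms allow for no pool of embryos shared between them. In shCtrl the replicate numbers differ between treatments, and vehicle and BIC share only number 2. The shCtrl responses and the differences between arms may therefore include differences between pools of embryos. The depth of the libraries is unknown, and Areg, Btc and Ereg, with mean counts of 37.0, 18.0 and 37.9, have the widest errors.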

Other observations

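The counted intervals of the 10 genes ran from 8.82 kb for Areg to 1104 kb for Nrg3. Of the 4 genes of up to 20 kb (Areg, Hbegf, Errfi1 and Ereg), 2 rose beside Areg and 0 fell under BIC averaged over arms, where 13.7% of 8264 genes of that length rose and 20.4% fell (Wald test with Benjamini-Hochberg adjustment). Of the 3 between 20 and 100 kb (Btc, Tgfa and Egf), 0 rose and 2 fell, beside 26.7% and 26.0% of 7204 genes. Of the 3 longer ones (Nrg1, Egfr and Nrg3), 1 rose and 2 fell, beside 37.3% and 27.6% of 2724 genes. Nrg1, at 100.2 kb, lies just past the limit of its class. These length classes were chosen after the values were seen, and no test was made of them.

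The FPKM and the comparison tables gave the same sign of change for 8 of the 9 genes above 0 FPKM in vehicle under TTX in shCtrl, and for 6 of 9 under BIC. Relative to FPKM, the mean normalized count per kb was low for Btc, at the 5.30th percentile of 14969 genes, and high for Egf, at the 96.7th.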
